A study of Mus musculus with 7 samples.

Results

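Translation initiation and elongation factors are the proteins that load the ribosome onto a messenger RNA, find the start codon and then move the ribosome along the coding sequence. The genes described here are those whose platform symbol begins with Eif or Eef followed by a digit, which also takes in kinases, repressors and methyltransferases named after the factors they act on. The rule found 58 genes among 18193 with a single symbol, represented by 155 probe sets. Probe sets that carry the symbols of several genes were not used.

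The data are 7 Affymetrix mouse expression arrays. All cells came from wild-type C57Bl/6J mice, labelled young adults and aged 6 to 12 weeks, and each array received amplified RNA from 1800 to 10000 sorted bone marrow cells that lacked CD45 and lineage markers. The CD54+CD31-BP1+ cells, labelled bone marrow stromal cells, have 4 arrays and are called stromal 1 to 4. The CD54-CD31+ cells, labelled bone marrow endothelial cells, have 3 arrays and are called endothelial 1 to 3. The labels do not say whether replicates came from separate mice or sorts, so p-values measure only the spread between these samples.

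In initiation, the factor eIF2 carries the initiator tRNA to the small ribosomal subunit, eIF3 holds that subunit open for the messenger, and the eIF4 proteins bind the cap of the messenger and unwind its leader. The exchange factor eIF2B reloads eIF2 with GTP, and kinases that phosphorylate the alpha subunit of eIF2 turn this step down under stress. During elongation, eEF1A delivers each aminoacyl-tRNA and eEF2 translocates the ribosome. In blood cells translation control is known above all from erythroid precursors, where a haem-regulated kinase matches globin synthesis to haem supply.

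The stromal arrays carried reticular stroma transcripts, while the arrays labelled endothelial carried those of megakaryocytes and leukocytes and some of the endothelial genes listed. All 9 reticular stroma genes passed toward the stromal arrays, and the mean of the list was 13.13 to 13.26 there, against 5.39 to 6.30 on the endothelial arrays. Megakaryocyte and platelet genes were higher on the endothelial arrays in 9 of 9, with a list mean of 5.61 to 8.18 on stromal and 13.13 to 13.46 on endothelial arrays. Pan-leukocyte genes were higher there in 8 of 8 (5.71 to 7.95 on stromal and 11.13 to 11.80 on endothelial arrays), and erythroid genes in 3 of 5 (5.61 to 7.09 on stromal and 7.08 to 8.32 on endothelial arrays). Of 8 endothelial genes tested 5 were higher there (5.86 to 6.07 on stromal and 7.87 to 8.20 on endothelial arrays). The rest of the 11 on the list, Cdh5, Tek and Emcn, did not pass the filter for dim genes. That filter also removes a gene that is bright on fewer than 3 arrays. Neutrophil genes passed toward the endothelial arrays in 6 of 9 (7.84 to 10.09 on stromal and 9.54 to 12.55 on endothelial arrays), and of 6 B lineage genes 3 passed toward the endothelial and 1 toward the stromal arrays (6.50 to 7.29 on stromal and 7.06 to 9.38 on endothelial arrays). The part of these cell types in the differences below was not tested. In sorted bulk RNA, fewer cells of a type and less RNA per cell cannot be told apart.

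Hybridisation controls, transcripts added to every sample, averaged over 18 probe sets 9.51 to 9.67 on the stromal arrays, against 9.75, 11.33 and 11.37 on endothelial 1 to 3. The difference between the probe sets at the end and at the beginning of the actin control transcript was 1.30 to 1.79 on the stromal and 0.65 to 1.49 on the endothelial arrays. A fit with the hybridisation-control level as a block compares endothelial 1 alone with the stromal arrays and takes its spread from the other arrays, so it is no check of that level by replicates. In it the median log2 difference, stromal minus endothelial, was 0.77 over the genes of the family and 0.29 over all genes tested. The part of the actin difference in the results was not tested.

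Across the family, more genes were higher on the stromal than on the endothelial arrays. With the brightest probe set of each gene, the share higher on the stromal arrays was close to that of all genes. The share higher on the endothelial arrays was smaller than theirs. To be tested, a gene had to exceed the 40th percentile of the array on 3 arrays or more, and 56 of the 58 did so. It was counted as higher where limma's adjusted p was under 0.05 and the log2 difference at least 1. On these terms 18 of 56 were higher on the stromal arrays (32.1%, against 30.9% of all 13995 genes tested) and 4 on the endothelial arrays (7.14%, against 16.1%), and 34 passed neither way. Over all genes tested 47% passed in one direction or the other. The median difference was 0.56 over the family and 0.19 over all genes tested, on the log2 scale and as stromal minus endothelial. In 24 genes all stromal arrays lay above all endothelial ones, and in 6 all lay below (42.9% and 10.7%, against 35.7% and 32.7% of all genes tested, together 68.4%). Renewed quantile normalization gave 11 and 6 of 56 genes, against 3206 and 3014 of all 13995. The medians were then 0.32 over the family and -0.13 over all genes. Averaging all probe sets of a gene, in place of taking the brightest, gave 6 and 1 of 56. Over all 13035 genes tested that way the counts were 3386 and 1887, so the family's stromal share was then below theirs. Among genes that passed, 81.8% were higher on the stromal arrays, and 64.7% after renewed quantile normalization or cyclic loess (65.7%, 51.5% and 57.8% over all genes).

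**Figure D1:**
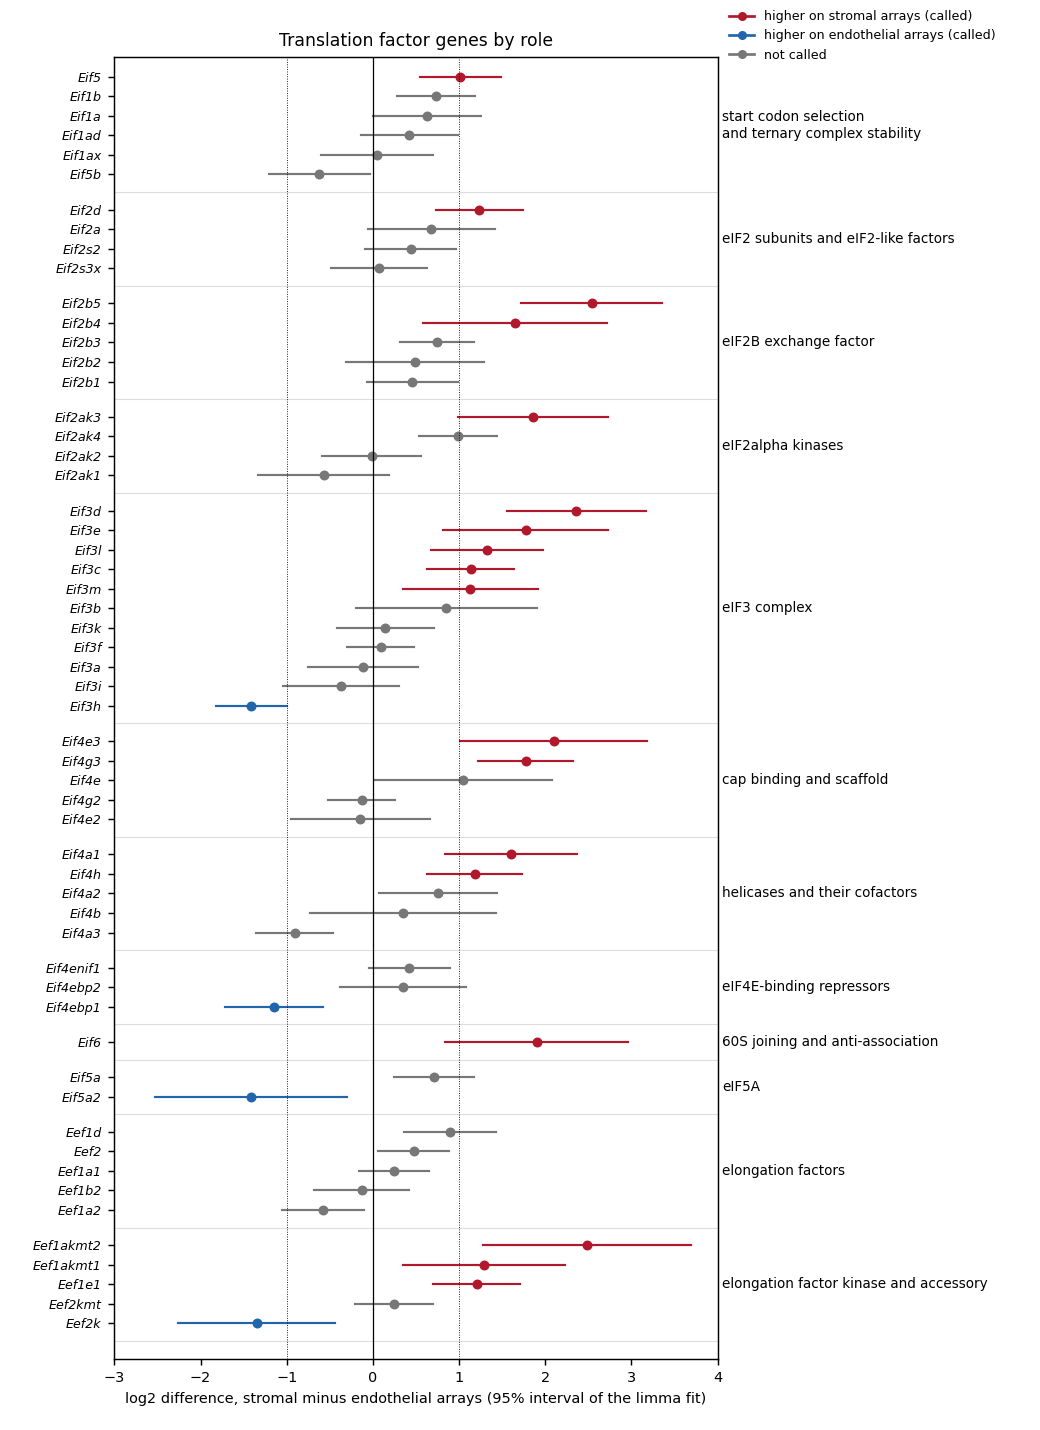
Log2 difference of each of the 56 genes tested, stromal minus endothelial, grouped by role, with points for the estimate and bars for the 95% interval of the limma fit; dotted lines mark a difference of 1 in either direction. Red genes (18) passed toward the stromal arrays, blue genes (4) toward the endothelial arrays, and grey genes (34) passed neither way.

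Among the factors of start codon selection only Eif5 passed, and narrowly. Eif5 encodes the protein that makes eIF2 hydrolyse its GTP at the start codon. Its values were 12.00, 11.69, 11.52 and 12.03 on stromal 1 to 4 and 10.56, 10.92 and 10.91 on endothelial 1 to 3. The groups did not overlap, with a difference of 1.01 ± 0.20 (SE; limma adjusted p = 0.00312). It was 0.95 without stromal 1, 0.94 without stromal 4 and 0.89 without endothelial 1, each short of the required size. The other 5 genes passed neither way and ranged from -0.62 to 0.73. Eif1b, a copy of the scanning factor gene for eIF1, had 10.43, 10.34, 10.73 and 10.28 on the stromal arrays and 9.92, 9.46 and 9.77 on the endothelial arrays. Those groups did not overlap either, but the difference of 0.73 (adjusted p = 0.0113) was below 1. Eif1a and Eif1ax, which both encode forms of the scanning factor eIF1A, stood at 0.63 (adjusted p = 0.0711) and 0.04 (adjusted p = 0.897). Eif1a had 7.94, 8.11, 8.24 and 8.11 on stromal 1 to 4 and 7.27, 7.01 and 8.14 on endothelial 1 to 3. Eif1ax had 10.31, 10.89, 10.86 and 10.92 on stromal 1 to 4 and 10.25, 11.27 and 10.59 on endothelial 1 to 3. Both overlapped between the groups. The other probe set of Eif1a passed toward the stromal arrays at 1.65 (adjusted p over all probe sets 0.00105), and the gene passed at 1.14 with its probe sets averaged. Eif5b, which encodes the GTPase that joins the ribosomal subunits, stood at -0.62 (adjusted p = 0.0562), with all 3 endothelial values above all 4 stromal ones, and passed after renewed quantile normalization at -1.12.

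Neither tested subunit gene of eIF2 passed on the probe set used. Eif2s2 and Eif2s3x, which encode its beta and gamma subunits, stood at 0.44 (adjusted p = 0.118) and 0.07 (adjusted p = 0.797). The interval of the Eif2s2 difference ran from -0.09 to 0.97, and a dimmer probe set of that gene passed at 1.36 (adjusted p over all probe sets 0.0211). Eif2s3x had 10.73, 11.36, 11.08 and 11.05 on the stromal arrays and 10.80, 11.44 and 10.70 on the endothelial arrays, and the groups overlapped. Its counterpart on the Y chromosome, Eif2s3y, lay at 3.27, 3.43, 3.46 and 3.45 on stromal 1 to 4 and 3.52, 3.49 and 4.13 on endothelial 1 to 3. These values are below the 40th percentile of every array, and the gene was not tested. Eif2a, which encodes an alternative carrier of initiator tRNA, stood at 0.68 (adjusted p = 0.0904). Eif2d, which encodes a factor that can place tRNA on the ribosome without GTP, was higher on the stromal arrays by 1.24 ± 0.22 (adjusted p = 0.00166). It had 9.24, 9.33, 9.12 and 8.80 there and 8.12, 7.53 and 8.01 on the endothelial arrays, with no overlap. That call ended after renewed quantile normalization (0.56, adjusted p = 0.0991) and with the average of its probe sets (0.14).

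All 5 subunit genes of eIF2B had positive differences, against 54.0% of all genes tested. Of the 5, 2 passed toward the stromal arrays, against 30.9% of all genes tested. Eif2b5, which encodes the catalytic epsilon subunit, had 8.87, 8.85, 8.43 and 8.98 on the stromal arrays and 7.14, 5.99 and 5.61 on the endothelial arrays. Its difference of 2.54 ± 0.35 (adjusted p = 4.69e-04), or 5.80-fold, was the largest in the family in the probe sets used, and stood at 0.98 with the average of its probe sets. Eif2b4, for the delta subunit, had 10.16, 10.12, 9.93 and 10.21 on the stromal arrays and 8.24, 7.43 and 9.69 on the endothelial arrays. Endothelial 3 thus lay close to the stromal range and set the wide spread behind a difference of 1.65 ± 0.46 (adjusted p = 0.0133). Under renewed quantile normalization the Eif2b4 difference was 1.13 with an adjusted p of 0.0635. Eif2b1, Eif2b2 and Eif2b3, for the alpha, beta and gamma subunits, stood at 0.46, 0.48 and 0.75 and did not pass, although the groups overlapped only in Eif2b2. Eif2b2, the brightest of the 5, had 10.37, 10.47, 10.31 and 10.49 on the stromal arrays and 9.65, 10.85 and 9.28 on the endothelial arrays, where endothelial 2 lay above every stromal array. In 4 of the 5 genes all stromal arrays lay above all endothelial ones, as in 35.7% of all genes tested. With either other scaling, or with probe sets averaged, 1 of the 5 passed.

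Of the 4 eIF2alpha kinase genes, the one for PERK, which responds to unfolded protein in the endoplasmic reticulum, was higher on the stromal arrays. This gene, Eif2ak3, had 9.92, 9.62, 9.36 and 9.61 on stromal 1 to 4 and 7.25, 8.78 and 7.29 on endothelial 1 to 3. The difference was 1.86 ± 0.38 (adjusted p = 0.00322), or 3.62-fold, and endothelial 2 lay closest to the stromal arrays. With the average of its probe sets Eif2ak3 stood at 0.16. Eif2ak4, for the amino acid sensor GCN2, had 6.93, 6.48, 6.57 and 6.33 on the stromal arrays and 5.42, 5.66 and 5.69 on the endothelial arrays. With a difference of 0.99 (adjusted p = 0.00303) it fell just short of the required size. It passed at 1.02 without stromal 2, 1.07 without stromal 4, 1.02 without endothelial 2 and 1.04 without endothelial 3. Under both other scalings it passed too, and in all under 10 of the 18 alternatives that tested it. The endothelial mean of this gene lay below the 40th percentile. Eif2ak1, for the haem-regulated kinase HRI of erythroid cells, ran the other way without passing (-0.57, adjusted p = 0.153). It had 7.66, 8.0, 7.46 and 7.63 on the stromal arrays and 8.94, 7.49 and 8.35 on the endothelial arrays, where endothelial 2 fell within the stromal range. It was higher on the endothelial arrays after renewed quantile normalization (-1.15, adjusted p = 0.0319) and cyclic loess (-1.15, adjusted p = 0.0354). Without endothelial 1, its highest array, it stood at -0.23. Of the erythroid marker genes 3 of 5 passed toward the endothelial arrays, as given above. Their list mean was 8.32, 7.53 and 7.08 on endothelial 1 to 3, lowest on endothelial 3, while Eif2ak1 was lowest on endothelial 2. The part of erythroid cells was not tested. Eif2ak2, for the double-stranded RNA sensor PKR, had 7.54, 7.39, 7.66 and 6.73 on the stromal arrays and 7.30, 7.26 and 7.48 on the endothelial arrays, and did not pass (-0.02, adjusted p = 0.957). The interval of that difference ran from -0.59 to 0.56.

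Of 11 eIF3 subunit genes 5 were higher on the stromal arrays, 1 was higher on the endothelial arrays and 5 passed neither way, where 30.9% and 16.1% of all genes tested passed. The counts were 2 and 1 after either other scaling, and 1 and 0 with probe sets averaged. Eif3d, whose protein can itself bind the cap of certain messengers, had 10.63, 10.19, 10.25 and 10.48 on the stromal arrays and 8.63, 8.33 and 7.12 on the endothelial arrays. Its difference of 2.36 ± 0.35 (adjusted p = 6.67e-04), or 5.13-fold, passed under all 19 alternatives run. Eif3e had 12.93, 13.08, 12.93 and 13.15 on the stromal arrays and 11.41, 12.18 and 10.16 on the endothelial arrays (1.77 ± 0.42, adjusted p = 0.00628). The endothelial values of Eif3e spread over 2 units while the stromal ones lay close together. The Eif3e call was lost with the hybridisation-control block (1.61, adjusted p = 0.0737) and with the average of its probe sets (0.77).

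Eif3l, Eif3c and Eif3m were higher on the stromal arrays by 1.32, 1.14 and 1.13 (adjusted p = 0.00417, 0.00250 and 0.0182), with no overlap in any. Eif3c stood at 0.94 after renewed quantile normalization. The probe sets used for Eif3c and Eif3m carry a suffix for possible cross-hybridisation. Without such probe sets Eif3c stood at 0.998, short of the required size, and Eif3m could not be tested. In that setting 3 of 10 eIF3 genes tested passed toward the stromal arrays. Eif3l fell to 0.998 without endothelial 3, just short of the size required, and Eif3m to 0.97 without stromal 4 and 0.80 without endothelial 1. Both calls were lost after renewed quantile normalization (0.71 for Eif3l and 0.52 for Eif3m), after cyclic loess (0.67 and 0.47) and with probe sets averaged (0.22 and 0.47). Eif3h was the exception in direction. It had 11.25, 11.55, 11.65 and 11.47 on stromal 1 to 4 and 13.01, 12.94 and 12.72 on endothelial 1 to 3, with a difference of -1.41 ± 0.18 (adjusted p = 2.71e-04). The replicates of each group lay close together. Its call held when each array was left out in turn and under both other scalings, and was lost with the average of its probe sets (-0.22), for which the other 2 lay below the filter. The core subunit genes Eif3a and Eif3b stood at -0.11 (adjusted p = 0.732) and 0.85 (adjusted p = 0.126), and Eif3f, Eif3i and Eif3k at 0.09, -0.37 and 0.14. In Eif3b endothelial 2 lay at 10.39 against 8.46 and 8.51 on endothelial 1 and 3. Without that array the Eif3b difference was 1.49 and passed (adjusted p = 5.24e-04). Eif3f had 12.82, 12.82, 12.67 and 12.47 on the stromal arrays and 12.55, 12.63 and 12.63 on the endothelial arrays, so the groups overlapped.

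**Figure D2:**
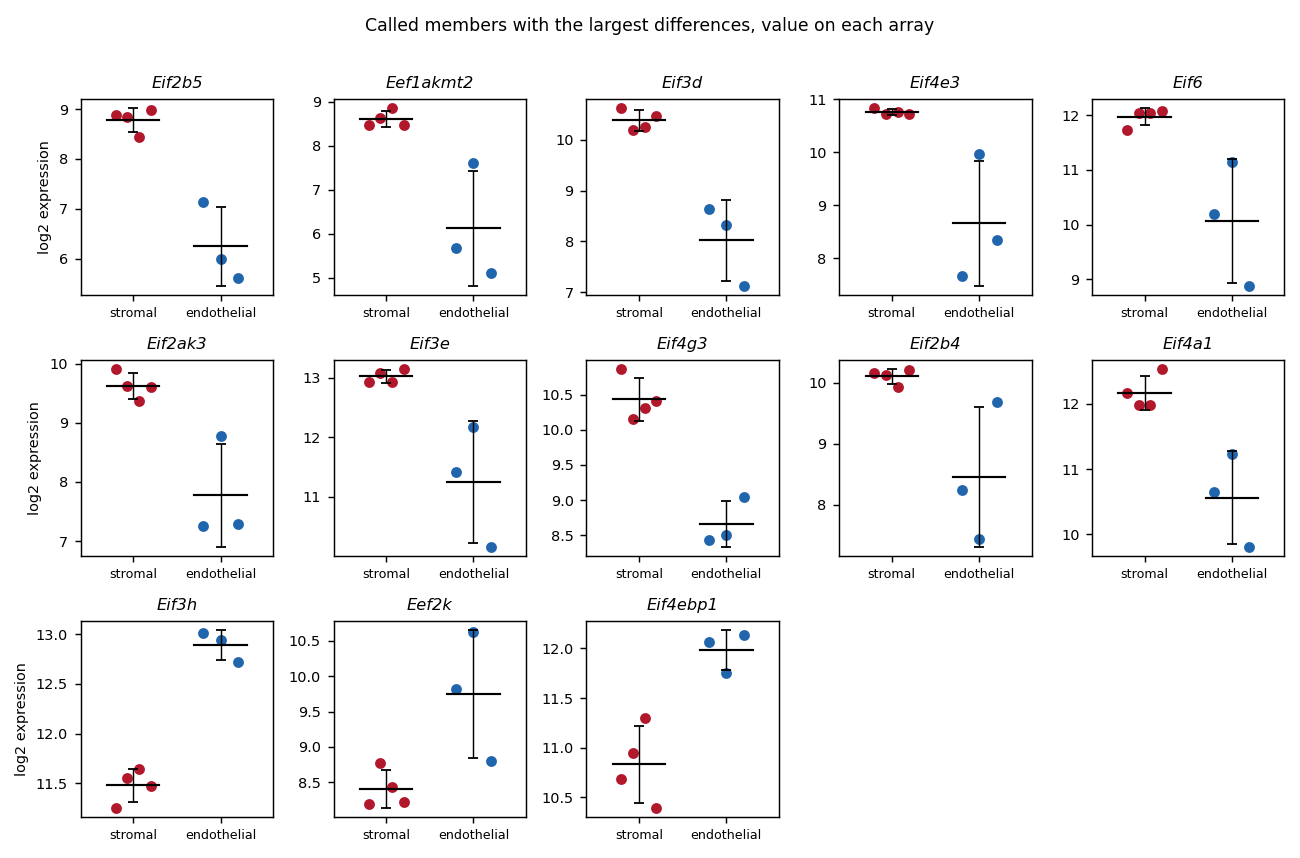
Log2 expression on each array for the 10 genes that differed most toward the stromal arrays and the 3 toward the endothelial arrays whose groups did not overlap; points are arrays, horizontal lines the group means and bars 1 SD, and each panel has its own axis. The 4 stromal values lie close together in most panels, while the endothelial values of Eef1akmt2, Eif4e3, Eif6, Eif3e and Eif2b4 spread widely.

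Among the cap-binding and scaffold genes Eif4e3 and Eif4g3 passed toward the stromal arrays, 2 of 5 tested, against 30.9% of all genes tested. No difference between forms was tested. Eif4e3 encodes a relative of the cap-binding protein eIF4E. It had 10.83, 10.71, 10.76 and 10.71 on stromal 1 to 4 and 7.66, 9.97 and 8.35 on endothelial 1 to 3, a difference of 2.10 ± 0.47 (adjusted p = 0.00517), or 4.28-fold. Its other probe set gave 2.13 (adjusted p over all probe sets 0.00972), and the call held under all 19 alternatives, with a range from 1.6 to 3.09. Eif4e, for the main cap-binding protein, had 8.58, 8.68, 8.55 and 9.44 on the stromal arrays and 7.89, 8.67 and 6.73 on the endothelial arrays. It did not pass (1.05, adjusted p = 0.0641), and passed at 1.5 without endothelial 2 (adjusted p = 0.00910). Eif4e2, whose protein binds the cap and represses translation, had 9.44, 9.78, 9.45 and 9.53 on the stromal arrays and 8.76, 10.11 and 10.22 on the endothelial arrays (-0.15, adjusted p = 0.721). Another of its probe sets passed toward the stromal arrays at 1.04 (adjusted p over all probe sets 0.0130).

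Eif4g3, for a form of the scaffold that bridges cap and ribosome, had 10.87, 10.15, 10.31 and 10.40 on the stromal arrays and 8.44, 8.51 and 9.04 on the endothelial arrays. The groups lay well apart, by 1.77 ± 0.24 (adjusted p = 4.05e-04), and by 0.38 with the mean of the probe sets. Eif4g2, for a scaffold that lacks the eIF4E-binding site and serves cap-independent initiation, had 13.36, 13.40, 13.45 and 13.24 on the stromal arrays and 13.61, 13.60 and 13.28 on the endothelial arrays. With a difference of -0.13 (adjusted p = 0.505) it did not pass, and its interval ran from -0.52 to 0.26.

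Among the helicase genes Eif4a1 and the cofactor gene Eif4h were higher on the stromal arrays. Eif4a1 encodes the main helicase of the cap complex. It had 12.16, 11.98, 11.98 and 12.54 on the stromal arrays and 10.65, 11.23 and 9.80 on the endothelial arrays, a difference of 1.61 ± 0.33 (adjusted p = 0.00351), or 3.04-fold. With its probe sets averaged Eif4a1 stood at 0.95 and did not pass. Its close relative Eif4a2 had 11.99, 10.95, 11.30 and 11.94 on the stromal arrays and 10.69, 11.10 and 10.58 on the endothelial arrays, where endothelial 2 overlapped with stromal 2 (0.75, adjusted p = 0.0510). Eif4h had 12.69, 12.41, 12.41 and 12.23 against 11.51, 11.50 and 10.75 (1.18 ± 0.24, adjusted p = 0.00312), and 0.93 without endothelial 3. The probe set used carries a suffix for possible cross-hybridisation, as do the 2 others that passed (1.32 and 1.45), and without such probe sets the difference was -0.19. Eif4b, for the other cofactor, stood at 0.35 (adjusted p = 0.518). Eif4a3, which encodes a core protein of the exon junction complex, stood at -0.91 (adjusted p = 0.00403), with a stromal mean below the 40th percentile.

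The repressor gene Eif4ebp1 was higher on the endothelial arrays. Its protein holds eIF4E away from the scaffold until mTORC1 phosphorylates it. It had 10.68, 10.95, 11.30 and 10.39 on stromal 1 to 4 and 12.06, 11.75 and 12.14 on endothelial 1 to 3, a difference of -1.15 ± 0.25 (adjusted p = 0.00406). The groups did not overlap. The call held when any single array was left out, but not without cross-hybridising probe sets (-0.84, adjusted p = 0.00694). Eif4ebp2 had 8.57, 9.11, 8.81 and 8.67 on the stromal arrays and 7.98, 9.22 and 8.13 on the endothelial arrays, and did not pass (0.35, adjusted p = 0.348). Eif4enif1, whose protein carries eIF4E into the nucleus, stood at 0.42 (adjusted p = 0.0941).

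Eif6, whose protein keeps the large ribosomal subunit from joining too early, was higher on the stromal arrays. It had 11.73, 12.04, 12.03 and 12.08 there and 10.20, 11.14 and 8.88 on the endothelial arrays, a difference of 1.90 ± 0.46 (adjusted p = 0.00715). The endothelial values differed among themselves by over 2 units. The call was lost with the hybridisation-control block (1.77, adjusted p = 0.0761) and with the average of its probe sets (0.76).

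The 2 genes for eIF5A, the hypusine-bearing factor that helps the ribosome through difficult peptide bonds, differed in sign on the probe sets used. Eif5a had 13.36, 13.45, 13.08 and 13.38 on the stromal arrays and 12.88, 12.65 and 12.29 on the endothelial arrays, apart but by only 0.71 (adjusted p = 0.0145). The other probe set of Eif5a gave -0.06 with overlapping groups (adjusted p over all probe sets 0.823). Eif5a2 had 5.71, 7.0, 6.62 and 6.66 on the stromal arrays and 8.62, 8.37 and 6.75 on the endothelial arrays, a difference of -1.41 ± 0.49 (adjusted p = 0.0303). Endothelial 3 fell within the stromal range on this probe set. The second probe set of Eif5a2 separated the groups clearly, with 5.31, 5.95, 5.59 and 5.83 on stromal 1 to 4 and 9.03, 8.62 and 8.90 on endothelial 1 to 3. Its difference was -3.18 (adjusted p over all probe sets 9.25e-06), the largest among the family's probe sets in either direction, and it lay between -3.43 and -3.06 over its alternatives. The stromal mean on the second probe set was 5.67, close to the arrays' 40th percentiles of 5.48 to 5.52. On the first probe set the call was lost without stromal 1 (-1.15), stromal 3 (-1.46), stromal 4 (-1.47), endothelial 1 (-1.06) or endothelial 2 (-1.19), and with the replicate block (-1.47, adjusted p over all probe sets 0.0695). When stromal 2, 3 or 4 was left out the second probe set became the brighter one and the gene's difference was -3.27, -3.16 and -3.23.

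None of the 5 elongation factor genes proper passed in either direction, where 47% of all genes tested passed in one or the other. Eef1a1, for the tRNA-delivering factor itself, had 13.55, 13.58, 13.51 and 13.39 on the stromal arrays and 13.44, 13.34 and 13.01 on the endothelial arrays. Its difference of 0.24 (adjusted p = 0.239) had an interval from -0.16 to 0.65. Eef1a2, the form known from muscle and neurons, had 6.23, 6.42, 6.28 and 6.28 on the stromal arrays and 7.24, 6.89 and 6.50 on the endothelial arrays. All endothelial values of Eef1a2 lay above all stromal ones, at a difference of -0.58 (adjusted p = 0.0367) that did not reach the required size. Eef1b2 and Eef1d, for subunits of the complex that reloads eEF1A with GTP, stood at -0.13 (adjusted p = 0.642) and 0.90 (adjusted p = 0.00947), and Eef1d passed at 1.12 without endothelial 2. A dim probe set of Eef1d passed the other way at -1.03 (adjusted p over all probe sets 0.00929), and the average over its probe sets was -0.19. Eef2, for the translocase, stood at 0.47 (adjusted p = 0.0434), with no overlap between the groups.

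Of the 5 kinase, methyltransferase and accessory genes tested, 3 passed toward the stromal and 1 toward the endothelial arrays. The shares over all genes tested were 30.9% and 16.1%. Eef2k, for the kinase that phosphorylates and inhibits eEF2, was higher on the endothelial arrays, with 8.19, 8.77, 8.43 and 8.23 on stromal 1 to 4 and 9.82, 10.62 and 8.81 on endothelial 1 to 3. Endothelial 3 lay just above stromal 2. The difference was -1.35 ± 0.40 (adjusted p = 0.0161), and without endothelial 2 it fell short at -0.91. A second Eef2k probe set also passed, at -1.05 (adjusted p over all probe sets 0.00283). Eef1akmt2, for a lysine methyltransferase of eEF1A, was higher on the stromal arrays, with 8.48, 8.63, 8.86 and 8.46 there and 5.68, 7.60 and 5.10 on the endothelial arrays. That difference of 2.48 ± 0.52 (adjusted p = 0.00383), or 5.59-fold, passed under all 19 alternatives.

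A further methyltransferase gene, Eef1akmt1, passed at 1.29 (adjusted p = 0.0227) with overlapping groups. The call was lost under 8 of 19 alternatives. It was lost under both other scalings, and without stromal 2 (1.22), stromal 3 (1.1), endothelial 1 (1.31) or endothelial 3 (0.88). Another Eef1akmt1 probe set passed at 2.28 (adjusted p over all probe sets 0.0137), while the rest stood at 0.36 and -0.59. Eef1e1, for a protein of the multi-synthetase complex, was higher on the stromal arrays by 1.2 ± 0.22 (adjusted p = 0.00184). Eef1e1 had 9.39, 9.36, 9.88 and 9.89 on stromal 1 to 4 and 8.28, 8.67 and 8.32 on endothelial 1 to 3, with no overlap. It stood at 0.58 (adjusted p = 0.0556) after renewed quantile normalization. Eef2kmt, for the enzyme that methylates eEF2, stood at 0.25 (adjusted p = 0.280). Eef1aknmt, for an enzyme that methylates eEF1A, lay below the filter for dim genes with 4.91 to 5.09 on the stromal and 4.44 to 5.40 on the endothelial arrays.

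Probe sets of the same gene often disagreed, so the sizes above hold for the probe set used. Of 155 probe sets 134 were bright enough to test, and 28 passed toward the stromal arrays (20.9%, against 28.3% of all 24519 probe sets tested) and 8 toward the endothelial arrays (5.97%, against 15%). In 35 genes at least 2 probe sets were tested, and in 22 of these the differences lay on both sides of 0. No gene had passing probe sets in opposite directions. Eif1ax shows how far probe sets can part. The probe set used for it gave 0.04 and overlapping groups, while a dimmer one had 7.79, 8.25, 7.71 and 8.39 on the stromal arrays and 6.78, 6.34 and 5.56 on the endothelial arrays (1.81, adjusted p over all probe sets 0.00185). In Eif2ak3 the probe set used stood at 1.86 and the next at -0.90 (adjusted p over all probe sets 0.0271), which is short of the required size.

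**Figure D3:**
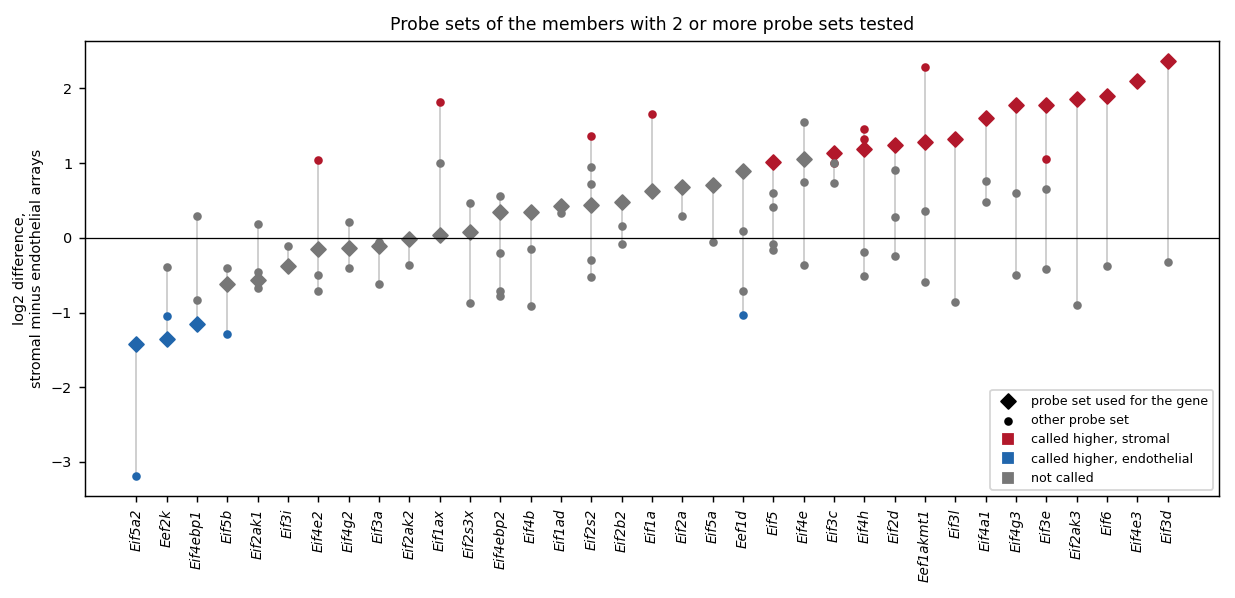
Log2 difference, stromal minus endothelial, of every tested probe set of the 35 genes with at least 2 such probe sets; diamonds mark the probe set used for the gene, circles the others, red and blue those that passed. In 22 of the 35 genes the points lie on both sides of 0, and the lowest point is the second probe set of Eif5a2 at -3.18.

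The endothelial arrays were not alike, in the family as over all genes. In 11 of the 18 genes higher on the stromal arrays endothelial 2 was the endothelial array nearest to the stromal mean (61.1%). That held for 48.9% of all 4319 genes higher there. Among all family genes tested endothelial 2 was nearest in 24 of 56 (42.9%), against 45.6% of all genes tested. The SD was larger on the endothelial than on the stromal arrays in 42 of 56 genes tested (75.0%), against 76.3% of all genes tested, so the wider endothelial spread is shared by the rest of the array.

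Genes that work around these factors were taken from lists of the pathway. The list of termination, recycling and rescue factors, which release finished proteins and split or free ribosomes, had 11 of 12 genes higher on the stromal and none on the endothelial arrays, against 30.9% and 16.1% of all genes tested, with a median of 1.94. In this list Mcts2, whose human relatives act in recycling and reinitiation, stood at 3.01, and Pelo, which encodes the rescue factor pelota, at 2.63. The endothelial means of both lay below the 40th percentile, which limits the size. The count in the list was 6 after either other scaling, 7 with the hybridisation-control block and 6 without endothelial 1, and its median stayed positive at 1.34 to 2.25 over the alternatives. Gspt1, for the release factor eRF3, stood at 2.49 on the probe set used and at 0.68 to 0.79 without any 1 stromal array and 0.19 without endothelial 1, when another probe set was brighter.

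Toward the stromal arrays passed 5 of 9 mitochondrial translation factors, 8 of 21 cytosolic aminoacyl-tRNA synthetases, and 7 of 15 hypusine, diphthamide and selenocysteine factors. Over all genes tested 30.9% passed that way. The medians of these lists were 1.09, 0.85 and 0.75, and 0.68, 0.22 and 0.46 after renewed quantile normalization. Mtrf1l, for a mitochondrial release factor, stood at 2.63 (adjusted p = 7.96e-06) and Rars, for the arginine synthetase, at 2.41 (adjusted p = 0.00364). After renewed quantile normalization the counts were 3, 4 and 4, and without endothelial 1 the mitochondrial count was 2. In the third list 1 gene ran the other way. It was Sephs2, which encodes selenophosphate synthetase, at 8.34 ± 0.16 (SD, n = 4) on the stromal and 11.91 ± 0.35 (SD, n = 3) on the endothelial arrays (-3.57, adjusted p = 3.60e-06). Dph6, for an enzyme that completes the diphthamide residue of eEF2, stood at 2.76 (adjusted p = 1.31e-04).

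Cap complex partners passed toward the stromal arrays in 6 of 16 and toward the endothelial arrays in 1, and the mTORC1 and S6 kinase axis in 6 and 1 of 22. The shares over all genes tested were 30.9% and 16.1%. The medians of both lists were 0.51, but 0.05 and 0.04 after renewed quantile normalization, -0.00 and 0.12 after cyclic loess, and 0.35 and 0.07 with probe sets averaged. Paip2b, for an inhibitor of poly(A)-binding protein, stood at 2.56 (adjusted p = 5.00e-04) and Ddx3x, for a helicase of the messenger leader, at 2.20 (adjusted p = 8.32e-04). Mknk2, for a kinase that phosphorylates eIF4E, was the exception of the cap list at -1.78 (adjusted p = 1.06e-04). In the mTORC1 list Sesn3, for a stress-induced inhibitor of the pathway, stood at 2.46, and Nprl3, for a subunit of an amino acid sensing complex, at -2.0. Akt1s1 and Mtor also passed toward the stromal arrays on the probe sets used. The count toward the stromal arrays in this list was 3 after renewed quantile normalization or with the mean of probe sets.

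The regulators and targets of the integrated stress response, the program set off by the eIF2alpha kinases, passed in both directions, at counts near the 30.9% and 16.1% of all genes tested. Of 18 tested 5 passed toward the stromal and 3 toward the endothelial arrays, with a median of 0.24. The median was -0.18 with renewed quantile normalization and -0.36 with cyclic loess, with 3 and 5 genes passing in each. Dnajc3, which encodes an inhibitor of PERK in the endoplasmic reticulum, was higher by 3.27 on the stromal arrays (adjusted p = 3.66e-05). Atf4, for the transcription factor at the centre of the program, stood at -0.95 (adjusted p = 0.00161) and did not reach the required size. Atf4 was named after its value was seen. Nupr1, for a stress-induced chromatin protein, stood at 6.27, with an endothelial mean below the 40th percentile, and Abcf3 at 2.81. Ppp1ca, for a catalytic subunit of the phosphatase that reverses eIF2alpha phosphorylation, was higher on the endothelial arrays (-1.27, adjusted p = 0.00179). Chac1, for a glutathione-degrading enzyme, stood at -1.3 (adjusted p = 0.0304), and that call was lost without any 1 of the stromal arrays (-1.33 to -1.27).

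**Figure D4:**
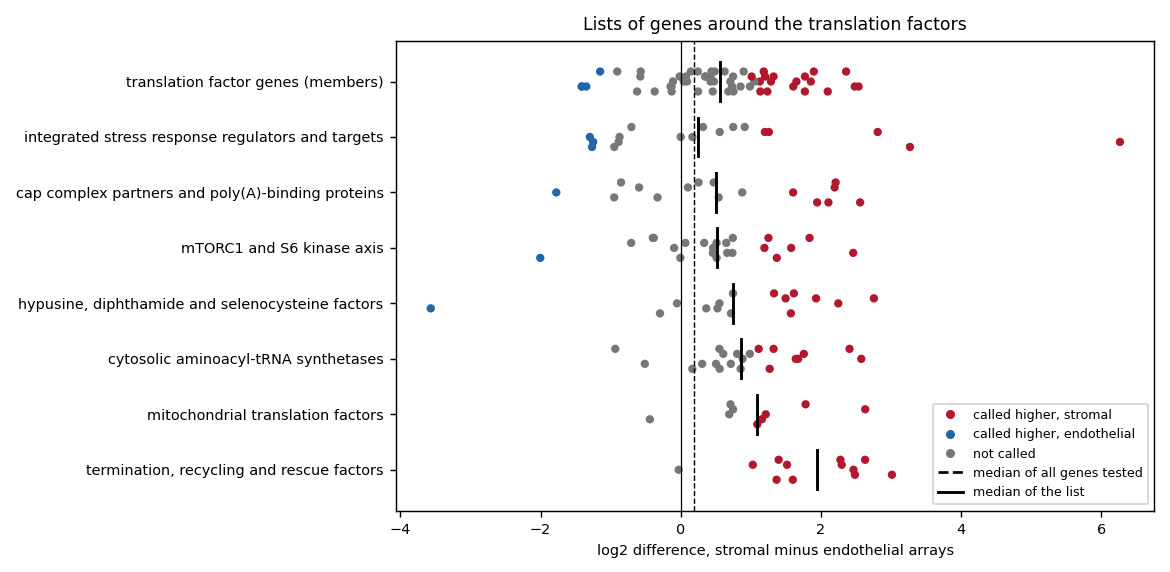
Log2 difference, stromal minus endothelial, of each tested gene in the family (top row) and in 7 lists of genes that work around it; black bars are list medians, the dashed line the median of all genes tested at 0.19, and red and blue points passed toward the stromal and endothelial arrays. Termination, recycling and rescue factors lie furthest to the right, with a median of 1.94, and the stress response list spreads to both sides of 0.

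The family's promoters were searched for the letters CACGTG, the E-box core bound by Myc and related factors, which reads the same on both strands. RefSeq promoters of mouse build GRCm38.p6, from 250 bases before the annotated start to 50 bases from it, were available for 47 of the 58 genes. The letters occurred in 12 of these 47 (25.5%), against 1242 of 11208 genes tested on the arrays (11.1%) and 8.09% of all genes in the promoter table. By result they were found in 2 of 14 genes higher on the stromal arrays, 2 of 2 higher on the endothelial arrays and 7 of 29 that passed neither way, and also in Eef1aknmt, which was not tested. The stretches around the core in the genes that passed, and in the main cap-binding gene Eif4e, are shown so that the placement can be compared, with the core in capitals.
Eif5a2, chr3:28781123-28781152, plus strand: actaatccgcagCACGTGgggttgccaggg
Eif5a2, chr3:28781148-28781177, plus strand: cagggcgagcttCACGTGacggggcgggac
Eef2k, chr7:120842788-120842817, plus strand: cccggggacggcCACGTGagcccgggcgtg
Eif4a1, chr11:69672595-69672624, minus strand: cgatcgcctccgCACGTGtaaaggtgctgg
Eif4h, chr5:134639488-134639517, minus strand: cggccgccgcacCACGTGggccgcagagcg
Eif4e, chr3:138527028-138527057, plus strand: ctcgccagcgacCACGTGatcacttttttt
Eif4e, chr3:138527192-138527221, plus strand: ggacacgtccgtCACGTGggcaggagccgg

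Eif5a2 and Eif4e each held the core at 2 places, with its first base at -142 and -117 relative to the start in Eif5a2 and at -228 and -64 in Eif4e. A match is a run of letters and not a shown binding site, and its part in the differences between the populations was not tested.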

How the data were processed

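Amplified RNA of 7 sorted samples (4 CD54+CD31-BP1+, 3 CD54-CD31+) was measured on arrays. The deposited log2 expression values were made by the authors with Affymetrix Expression Console 1.1 and RMA, per the submitters' processing notes, so background correction, quantile normalization and probe set summary precede every step here. RMA draws the arrays toward one distribution, which can shift differences between unlike cell types. Which arrays were normalized together is not given in the sources used here. The table holds 45101 probe sets, of which 34945 have 1 symbol in a platform annotation, 932 several, 9160 none and 64 are controls. No depth applies to arrays, and their number limits precision.

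For each of 18193 genes the brightest probe set, by its mean across the 7 arrays, was used. Genes with at least 3 arrays above their own 40th percentile were tested (13995). Differences are stromal minus endothelial from limma 3.58.1 (lmFit, eBayes, no covariates) run in R 4.3.3, and p-values were adjusted by Benjamini and Hochberg's method across every gene tested. A call needed an adjusted p under 0.05 and a difference of at least 1. Probe sets were tested in a separate fit over 24519 of them.

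Values on every array are given for up to 10 non-overlapping genes past the threshold on each side, for groups of paralogues, and for the gene of each role with the highest mean. Pathway genes, apart from Atf4, were taken from those with the largest differences past the threshold in each list and direction. Some of these are not named. The members, roles, lists and alternatives were chosen with earlier results of these data known. The alternatives were other filters, probe set choices, scalings, eBayes settings, array weights, an adjusted p alone, replicate or hybridisation-control blocks, the 5 arrays of like hybridisation-control level, and leaving out each array.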

Additional observations from a re-analysis of the deposited data

Results flagged for a closer look

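In 6 of the 58 genes 1 of the 4 stromal arrays lay far from the other 3 by Dixon's test at the 95% level. Chance flags about 1 in 20 groups. Stromal 1 was lowest for Eif1ax (10.31 against 10.86 to 10.92 on the others), Eif6 (11.73 against 12.03 to 12.08) and Eif2s3y (3.27 against 3.43 to 3.46, at the dim end of the array). Stromal 4 was highest for Eif4e (9.44 against 8.55 to 8.68) and Eif3m (9.5 against 8.82 to 8.92), and lowest for Eif3k (8.54 against 9.25 to 9.36). The cause was not tested.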

How the results depend on the processing

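Of the 22 genes that passed, 3 (Eif3d, Eif4e3 and Eef1akmt2) did so under all 19 alternatives. The count toward the stromal arrays, 18 as reported, was 11 after renewed quantile normalization and 11 after cyclic loess. It was 6 with all probe sets of a gene averaged. Over all genes it went from 4319 to 3206, 3270 and 3386. The count toward the endothelial arrays, 4 as reported, was 1 with that mean, against 2252 and 1887 over all genes. Leaving out 1 array gave 15 to 22 and 2 to 4, the 2 without endothelial 2. Over all genes the same fits gave 3980 to 4825 and 1818 to 2308. Of the 18 genes, 10 also passed after renewed quantile normalization and 5 with the mean of probe sets. How many of all genes kept their call under the alternatives was not counted. The family's median of 0.56 was 0.29 with the mean of probe sets and 0.31 after cyclic loess. The share of calls toward the stromal arrays was 81.8%, and 64.7% after either scaling, against 65.7%, 51.5% and 57.8% over all genes. On an adjusted p alone 4412 genes in all were higher on the endothelial arrays, against 2252. Without cross-hybridising probe sets Eif4h stood at -0.19 and Farsb, of the synthetase list, at -3.46 in place of 1.76, each on another probe set. The labels give both groups the same replicate numbers, but same-numbered arrays deviated together with correlations of only -0.002, 0.035 and 0.117. The replicate block gave 17 and 3 genes, against 4176 and 2278 over all genes. With the hybridisation-control block the median difference was 0.77 over the family and 0.29 over all genes. The cause of these changes was not tested. Signal over background limits Eif2s3y, Eef1aknmt, Eef2kmt, Eif2ak4 and Eif4a3, with a group mean below the 40th percentile.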

Other observations

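Eif2s3y was dim on all 7 arrays, and so were the other Y-linked genes looked at. Kdm5d lay at 3.95 to 4.94 and Uty at 3.96 to 5.48, below the 40th percentile on 7 of 7 arrays, while Xist, expressed from the inactive X chromosome, lay at 11.25 to 13.52. The labels give no sex for these mice. These genes were chosen after the Eif2s3y values were seen.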
